A study of Sus scrofa with 12 samples.

Results

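The protein genes of the mitochondrial ribosome were described in the longissimus dorsi, a muscle that runs along the back. There were 6 libraries from Laiwu and 6 from Yorkshire pigs. Members were the rows of the gene table whose symbol starts with MRPL or MRPS followed by a digit, for proteins of the large and the small subunit. This took 66 of 23271 listed genes, 41 MRPL and 25 MRPS, and all 66 were among the 11205 genes tested because each averaged at least 0.5 FPKM (FPKM is a level scaled for transcript length and sequencing depth). The rule used names and no measured value. Laiwu pigs are a fatty Chinese breed and Yorkshire pigs a lean Western breed, and the study compared muscle of animals of equal weight. The labels give no age, allele or treatment. They do not state that each library came from its own animal, so the p-values cover only the spread between these libraries, which may be partly technical.

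The mitochondrial ribosome sits in the matrix of the mitochondrion and makes the few proteins that mitochondrial DNA still encodes, all of them core parts of the respiratory chain and ATP synthase. Its RNAs come from mitochondrial DNA, whereas its proteins are encoded in the nucleus, made in the cytosol and imported. Some of these proteins have counterparts in bacterial ribosomes and others were added in the mitochondrial lineage. Muscle, and its slow fibres above all, depends on this machinery for oxidative energy supply.

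Library totals ran from 55351545 to 67285809 counts in Laiwu and from 54961358 to 67030374 counts in Yorkshire. The 66 members held 0.122% to 0.133% of a library's counts in Laiwu and 0.123% to 0.171% in Yorkshire. Counts of single members ran from 23 (MRPL57) to 5126 (MRPL28). Skeletal muscle markers matched the labelled tissue, with 7 of 8 fixed markers listed and a summed level of 64223 to 82524 FPKM in Laiwu and 65038 to 84994 FPKM in Yorkshire. The summed level was 28.6 to 155.9 FPKM in Laiwu and 20.1 to 57.5 FPKM in Yorkshire for 5 adipocyte markers, and 20.6 to 33.9 FPKM in Laiwu and 17.7 to 39.2 FPKM in Yorkshire for 4 endothelial markers. It was 35.9 to 61.4 FPKM in Laiwu and 36.5 to 71.3 FPKM in Yorkshire for 3 smooth muscle and pericyte markers, and 96.9 to 176.3 FPKM in Laiwu and 97.0 to 115.2 FPKM in Yorkshire for 3 markers of fibro-adipogenic progenitors. Macrophage, lymphocyte, erythroid and Schwann cell markers each summed to at most 15.6 FPKM in any library, and 0 listed markers were at 0 in all libraries. The library Yorkshire 5 stood apart, because its deviations from the mean level were lower the longer the transcript across all tested genes (Spearman's rho of -0.43, against -0.11 to 0.18 in the other 11 libraries, a description over genes, which are not independent). Fold changes of the members and the medians of lists are therefore given with and without it. Transcript lengths throughout were computed from count and FPKM, and may differ from the lengths of the mRNAs.

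No mitochondrial ribosomal protein gene passed the test of Laiwu against Yorkshire. edgeR's quasi-likelihood test called 0 of 66 members higher and 0 lower in Laiwu at an adjusted p under 0.05, where 0% of all tested genes were called in either direction. At an unadjusted p under 0.05, 0 members were higher and 5 lower in Laiwu, against 2.14% of all tested genes higher, 2.3% lower and 4.44% in either direction. DESeq2 and limma also called 0 members, where DESeq2 called 0.00893% and limma 0% of all tested genes. DESeq2 gave 6 of 66 members an unadjusted p under 0.05, beside 569 of 11205 tested genes. Limma on log2(FPKM + 1) gave 2 of 66 members one, beside 397 of 11205 tested genes. The smallest adjusted p among the members was 0.912. No member had its 6 Laiwu values entirely above or below its 6 Yorkshire values, a pattern seen in 0.0803% (above) and 0.0982% (below) of all tested genes. Members had a median standard error of 0.14 on the log2 scale, from 0.09 to 0.50, against a median of 0.16 over all tested genes.

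The members' fitted log2 fold changes, Laiwu minus Yorkshire, lay mostly below 0, and their median lay nearer to 0 without Yorkshire 5. Of the 66 members, 14 had a value above 0 and 52 below, and their median was -0.12, beside a median of -0.001 over all tested genes, of which 50.3% were below 0. Without Yorkshire 5, 25 members were above 0 and 41 below, with a median of -0.047, beside 50.4% of all tested genes below 0. Between the fits with and without that library, 53 members kept the sign of their value, 12 turned from below to above 0 and 1 turned the other way. MRPL genes had a median of -0.12 (9 above 0, 32 below), and of -0.06 without Yorkshire 5 (14 above, 27 below). MRPS genes had a median of -0.11 (5 above, 20 below), and of -0.03 without Yorkshire 5 (11 above, 14 below). The plot of fold changes with and without Yorkshire 5 shows most points above the diagonal. In whole muscle, fewer mitochondria-rich cells and less of a transcript per cell cannot be told apart.

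**Figure D1:**
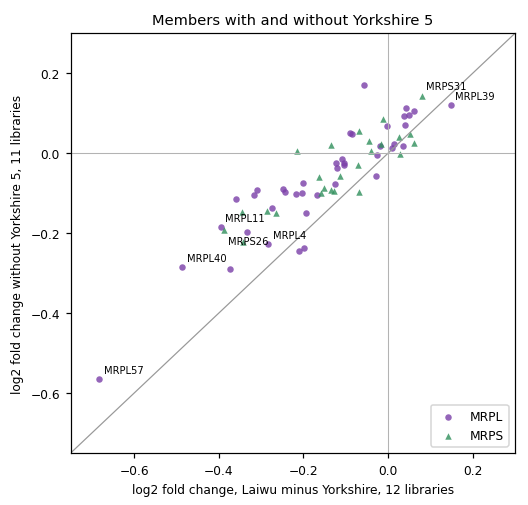
Log2 fold change of each of the 66 members, Laiwu minus Yorkshire, from edgeR on all 12 libraries (horizontal axis) and without Yorkshire 5 (vertical axis). Circles are MRPL and triangles MRPS genes, and the diagonal marks equal values. The median moves from -0.12 to -0.047 when the library is left out.

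The summed level of all 66 members was highest in Yorkshire 5 as well. The sum was 599.9 FPKM at the lowest, 632.3 at the median and 668.2 at the highest in Laiwu, against 598.3, 647.4 and 909.9 FPKM in Yorkshire. The Laiwu range lay within the Yorkshire range, and the Yorkshire libraries above it were Yorkshire 5 and Yorkshire 3, at 909.9 and 754.9 FPKM. The mean was 632.1 ± 24.7 FPKM in Laiwu, against 699.2 ± 115.8 FPKM in Yorkshire (SD, n = 6 each), and 657.1 ± 58.7 FPKM in Yorkshire without Yorkshire 5 (n = 5). By symbol, which is not the exact makeup of the subunits, the summed level of MRPL over that of MRPS was 2.10 ± 0.08 in Laiwu and 2.09 ± 0.10 in Yorkshire (SD, n = 6 each), and 2.14 in Yorkshire 5.

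**Figure D2:**
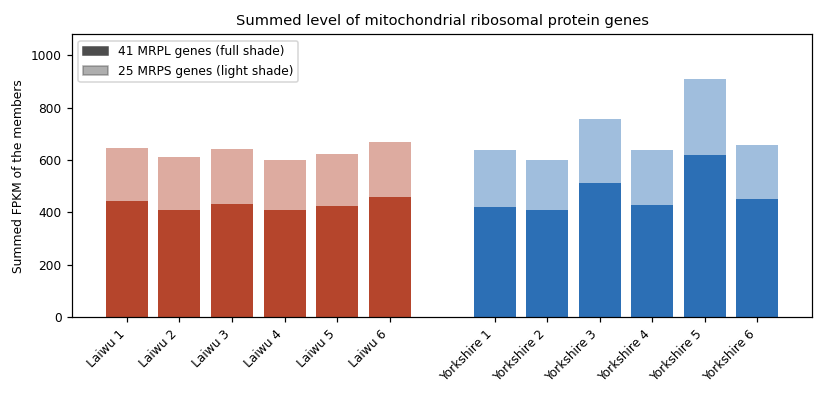
Summed FPKM of the members in each library, Laiwu in red and Yorkshire in blue, with MRPL genes in full shade and MRPS genes stacked in light shade. Laiwu libraries lie between 599.9 and 668.2 FPKM, and Yorkshire 5 stands highest at 909.9 FPKM.

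Most members were present at moderate levels in both breeds. Their mean levels ran from 1.02 FPKM for MRPS30 to 34.1 FPKM for MRPS26, with a median of 7.33 FPKM, against 3.77 FPKM over all tested genes, and 55 of 66 lay above the middle of all tested genes. Of the members, 4 averaged under 2 FPKM, 54 between 2 and 20 FPKM and 8 above 20 FPKM. Within a library the highest member stood 31.1 to 53.3 times above the lowest in Laiwu and 26.4 to 49.4 times in Yorkshire. The order of members by mean level was nearly the same in the breeds (Spearman's rho of 0.99 over 66 genes, which share their libraries and lengths). The plot of levels by gene shows the ranges of the breeds overlapping for each member.

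**Figure D3:**
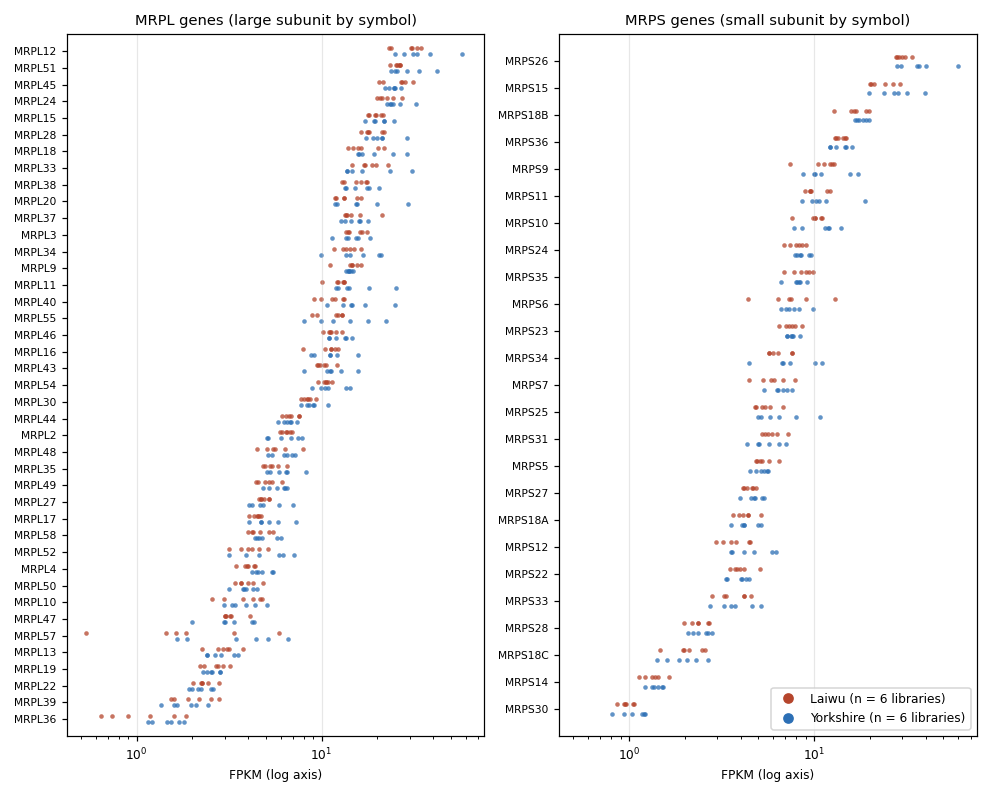
FPKM of each member in each library on a log axis, MRPL genes on the left and MRPS genes on the right, ordered by mean level, with Laiwu in red above Yorkshire in blue. Each point is 1 library (n = 6 per breed), and the breeds overlap for all 66 members.

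At the top of the large subunit by level were MRPL12, MRPL51, MRPL45 and MRPL24. MRPL12 encodes the counterpart of the bacterial stalk protein that draws translation factors to the ribosome. It was at 23.2 FPKM at the lowest, 30.6 at the median and 34.6 at the highest in Laiwu, against 25.1, 31.9 and 57.5 FPKM in Yorkshire. The breeds overlapped, and the highest value was that of Yorkshire 5, where the next Yorkshire value was 38.7 FPKM. MRPL51, a large subunit protein without a bacterial counterpart, was at 23.4, 25.8 and 26.7 FPKM in Laiwu, against 23.7, 27.2 and 42.1 FPKM in Yorkshire, again highest in Yorkshire 5. MRPL24, the counterpart of a bacterial protein that starts assembly of the large subunit, was at 19.9, 21.8 and 27.0 FPKM in Laiwu, against 22.7, 23.9 and 32.6 FPKM in Yorkshire.

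MRPL45 (chromosome 12, 23751926 to 23766459), which ties the ribosome to the inner membrane where its products are inserted, did not share this pattern. It was at 20.4 FPKM at the lowest, 27.1 at the median and 31.1 at the highest in Laiwu, against 22.1, 24.6 and 26.7 FPKM in Yorkshire. The Laiwu values enclosed all Yorkshire values. Its log2 fold change was 0.06 ± 0.12 (SE), with an edgeR adjusted p of 0.955. It was 0.11 without Yorkshire 5 and ran from 0.0022 (without Yorkshire 3) to 0.12 (without Laiwu 5) with 1 library left out.

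The rest of the stalk and its base was present as well. MRPL10, which anchors the stalk, was at 2.55 FPKM at the lowest, 4.01 at the median and 4.74 at the highest in Laiwu, against 2.95, 3.66 and 5.04 FPKM in Yorkshire, below MRPL12 in every library on the per-length scale of FPKM. MRPL11 (ENSSSCG00000012943, chromosome 2, 5978497 to 5981446), the protein of the stalk base, was at 10.1, 12.6 and 13.2 FPKM in Laiwu, against 11.96, 13.9 and 25.4 FPKM in Yorkshire. The MRPL11 values overlapped, with Yorkshire 1, 3, 5 and 6 above all Laiwu libraries and Yorkshire 2 and 4 within their range. Its log2 fold change was -0.39 ± 0.18 (SE) with an edgeR adjusted p of 0.912, and -0.19 without Yorkshire 5.

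MRPL40 had the smallest unadjusted p of the members, 0.019 by edgeR, with an adjusted p of 0.912. MRPL40 (ENSSSCG00000034014, chromosome 14, 51102613 to 51105767) encodes a large subunit protein without a bacterial counterpart. It was at 9.09 FPKM at the lowest, 11.6 at the median and 13.2 at the highest in Laiwu, against 10.7, 14.5 and 24.8 FPKM in Yorkshire. Of the Yorkshire libraries, 4 lay above all Laiwu libraries and Yorkshire 1 and 2 lay within their range. The log2 fold change was -0.49 ± 0.18 (SE), and -0.28 without Yorkshire 5.

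MRPL4 (ENSSSCG00000013656, chromosome 2, 69072835 to 69082688), the counterpart of a bacterial protein that lines the tunnel through which new chains leave, was next, and of the 4 members with the smallest p below 0 its value moved least without Yorkshire 5. It was at 3.44 FPKM at the lowest, 3.99 at the median and 4.36 at the highest in Laiwu, against 4.20, 4.63 and 5.43 FPKM in Yorkshire. Yorkshire 1 lay within the Laiwu range and the other 5 above it, and the highest Yorkshire library was Yorkshire 3. The log2 fold change was -0.28 ± 0.11 (SE) with an edgeR adjusted p of 0.912, and -0.23 without Yorkshire 5.

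MRPS26 had the highest mean FPKM of the 66 members and was among the 4 with the smallest p below 0. MRPS26 (ENSSSCG00000007165, chromosome 17, 32629284 to 32631430) encodes a small subunit protein without a bacterial counterpart. It was at 27.8 FPKM at the lowest, 29.3 at the median and 33.7 at the highest in Laiwu, against 28.2, 36.4 and 59.8 FPKM in Yorkshire. Yorkshire 2 and 4 lay within the Laiwu range and the other 4 above it. The log2 fold change was -0.39 ± 0.17 (SE) with an edgeR adjusted p of 0.912, and -0.19 without Yorkshire 5.

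The members with the smallest p above 0 were, beside MRPL45, MRPL39, MRPS31 and MRPS35, all 3 without a bacterial counterpart. MRPL39, of the large subunit (chromosome 13, 189148719 to 189166307), was at 1.53 FPKM at the lowest, 2.03 at the median and 2.80 at the highest in Laiwu, against 1.35, 1.82 and 2.43 FPKM in Yorkshire, a log2 fold change of 0.15 ± 0.18 (SE). MRPS31, of the small subunit (chromosome 11, 15450705 to 15472314), was at 5.23, 5.77 and 7.23 FPKM in Laiwu, against 4.32, 5.38 and 7.05 FPKM in Yorkshire, a log2 fold change of 0.08 ± 0.14 that was -0.0019 without Laiwu 1. MRPS35, of the small subunit (chromosome 5, 45973693 to 46030453), was at 6.83, 8.76 and 9.90 FPKM in Laiwu, against 6.65, 8.19 and 9.17 FPKM in Yorkshire, a log2 fold change of 0.06 ± 0.11. The breeds overlapped widely in each, and the edgeR adjusted p-values were 0.921 for MRPL39, 0.95 for MRPS31 and 0.952 for MRPS35. Without Yorkshire 5 the log2 fold changes were 0.12 for MRPL39, 0.14 for MRPS31 and 0.02 for MRPS35. With 1 library left out, that of MRPL39 ran from 0.05 (without Yorkshire 3) to 0.23 (without Laiwu 6), and that of MRPS35 from 0.02 (without Laiwu 1) to 0.12 (without Laiwu 5).

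Among the genes with MRPS symbols, MRPS15, MRPS18B and MRPS36 followed MRPS26 by level. MRPS15, a counterpart of a bacterial small subunit protein, was at 20.2 FPKM at the lowest, 22.6 at the median and 29.0 at the highest in Laiwu, against 19.9, 27.6 and 39.6 FPKM in Yorkshire. MRPS36, whose product is now known as a part of the oxoglutarate dehydrogenase complex and not of the ribosome, was at 12.98, 13.9 and 14.8 FPKM in Laiwu, against 12.2, 13.9 and 15.9 FPKM in Yorkshire. Its libraries were among the most even of the members, with a coefficient of variation of 5.73% in Laiwu and 11.3% in Yorkshire.

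The 3 relatives of bacterial protein S18 stood far apart in FPKM, but MRPS18A and MRPS18B did not in counts. MRPS18B, of the small subunit, was at 12.8 FPKM at the lowest, 16.7 at the median and 19.8 at the highest in Laiwu, against 16.7, 17.9 and 19.7 FPKM in Yorkshire. MRPS18A, whose product lies in the large subunit, was at 3.66, 4.25 and 5.15 FPKM in Laiwu, against 3.54, 4.16 and 5.17 FPKM in Yorkshire. MRPS18C was at 1.46, 2.04 and 2.57 FPKM in Laiwu, against 1.41, 1.96 and 2.69 FPKM in Yorkshire. The FPKM ranges of the 3 genes did not overlap with each other in either breed, whereas the breeds overlapped for each gene. In counts, MRPS18B had 1226 to 1883 in a library, MRPS18A 1381 to 2259 and MRPS18C 470 to 941. Their transcript lengths were 1468 bases for MRPS18B, 6928 for MRPS18A and 5337 for MRPS18C, and FPKM divides by length.

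MRPS12, the counterpart of a bacterial protein of the decoding centre, was at 2.95 FPKM at the lowest, 3.66 at the median and 4.49 at the highest in Laiwu, against 3.54, 4.45 and 6.19 FPKM in Yorkshire. MRPS27, a protein with RNA-binding pentatricopeptide repeats, was at 4.11, 4.46 and 4.88 FPKM in Laiwu, against 3.98, 4.76 and 5.36 FPKM in Yorkshire. Both overlapped between the breeds, and both were highest in Yorkshire 5. MRPL58, a member of the release factor family that can free stalled chains, was at 4.02, 4.46 and 5.48 FPKM in Laiwu, against 4.34, 4.67 and 6.06 FPKM in Yorkshire.

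Several members are known from inherited disease in people, and their levels overlapped between the breeds. MRPL3, whose bacterial counterpart lies by the peptidyl transferase centre, was at 13.5 FPKM at the lowest, 15.1 at the median and 17.5 at the highest in Laiwu, against 11.4, 14.6 and 18.2 FPKM in Yorkshire. MRPL44, a large subunit protein related to ribonucleases, was at 6.10, 6.74 and 7.55 FPKM in Laiwu, against 5.83, 6.63 and 7.33 FPKM in Yorkshire. Both overlapped over most of their range, and Yorkshire 5 was the lowest Yorkshire library for MRPL44. MRPS22, of the small subunit, was at 3.52, 3.91 and 5.11 FPKM in Laiwu, against 3.33, 4.06 and 4.47 FPKM in Yorkshire. MRPS34, also of the small subunit, was at 5.70, 6.18 and 7.63 FPKM in Laiwu, against 4.46, 7.08 and 11.1 FPKM in Yorkshire, and its coefficient of variation was 13.8% in Laiwu, against 31.3% in Yorkshire. MRPS16, fixed with them, was not analysed here.

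The lowest members were MRPS30, MRPL36, MRPS14 and MRPL39. MRPS30, whose product lies in the large subunit in spite of its symbol, was at 0.862 FPKM at the lowest, 0.953 at the median and 1.06 at the highest in Laiwu, against 0.813, 1.10 and 1.22 FPKM in Yorkshire. MRPS14, the counterpart of a bacterial small subunit protein, was at 1.13, 1.36 and 1.63 FPKM in Laiwu, against 1.22, 1.40 and 1.52 FPKM in Yorkshire. MRPS30 had 483 to 712 counts in a library and MRPS14 455 to 716, whereas MRPL36 had 103 to 303.

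By the mean of the coefficients of variation of the breeds, MRPL57, MRPL36 and MRPL55 ranked first, with MRPL57 well above the others. The ranking differed by breed. In Laiwu several members were above MRPL55 (15.6%), among them MRPS6 (36.4%) and MRPL39 (24.4%). In Yorkshire MRPL36 lay below the median of the members, and MRPL20 (37.9%) and MRPL33 (36.8%) were among the members above MRPL36. MRPL57 encodes a short large subunit protein without a bacterial counterpart and was at 0.531 FPKM at the lowest (Laiwu 3), 1.74 at the median and 5.85 at the highest (Laiwu 6) in Laiwu, against 1.65, 3.93 and 6.61 FPKM in Yorkshire. It had only 23 to 285 counts in a library and a coefficient of variation of 77.8% in Laiwu and 49.9% in Yorkshire. MRPL36, whose bacterial counterpart is a small zinc-binding protein, was at 0.646, 1.04 and 1.85 FPKM in Laiwu, against 1.15, 1.49 and 1.80 FPKM in Yorkshire, with coefficients of 42.1% in Laiwu and 17.2% in Yorkshire. MRPL55, the counterpart of a bacterial large subunit protein, was at 8.82, 12.1 and 12.9 FPKM in Laiwu, against 8.05, 12.9 and 22.3 FPKM in Yorkshire, where the top value was again Yorkshire 5. Over all 66 members the median coefficient of variation was 12.7% in Laiwu and 17.7% in Yorkshire, or 14.2% in Yorkshire without Yorkshire 5, against 17.5% in Laiwu and 22.0% in Yorkshire over all tested genes.

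**Figure D4:**
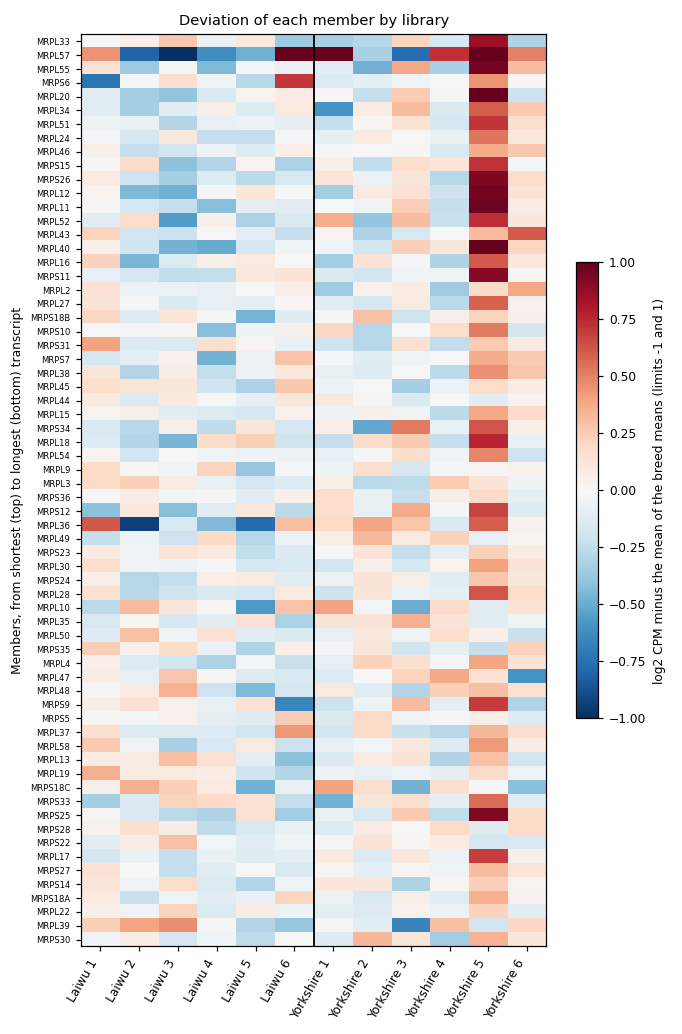
Log2 CPM of each member in each library minus the mean of the 2 breed means (colour, limits -1 and 1), with Laiwu left and Yorkshire right of the line and members from the shortest transcript at the top to the longest at the bottom. Yorkshire 5 is positive for 57 of 66 members, most strongly among the short ones at the top.

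Yorkshire 5 was the highest of all 12 libraries by FPKM for 31 of 66 members, against 14.9% of all tested genes. In log2 CPM its median deviation over the members was 0.38, where the other libraries lay between -0.11 (Laiwu 5) and 0.07 (Yorkshire 6). Members were shorter than most genes, with a median transcript length of 2148 bases against 3636 bases, and 48 of 66 were under the middle of all tested genes. The 24 members under 1500 bases had a median deviation of 0.66 in Yorkshire 5, beside 0.45 for all tested genes of that length. The 23 members of 3000 bases or more had one of 0.30, beside -0.15 for all tested genes of that length. Set against the median of all tested genes in their own length class (10 classes of equal size), 50 members lay above it and 16 below in Yorkshire 5, and 19 to 42 lay above it in the other libraries. Beside this, the summed level of 8 listed slow fibre markers was 662.8 to 2786 FPKM in Laiwu and 1542 to 3262 FPKM in Yorkshire, highest of the 12 in Yorkshire 5. The sum of the skeletal muscle markers was also highest there, at 84994 FPKM, against at most 82524 FPKM in Laiwu. So was the sum over all tested genes, at 373048 FPKM, against 315122 to 339697 FPKM in the other libraries. The slow fibre sum was lowest of the 12 in Laiwu 1, whose median deviation over the members, 0.05, was the highest in Laiwu. The part of length and of fibre makeup in the members' deviations was not tested.

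**Figure D5:**
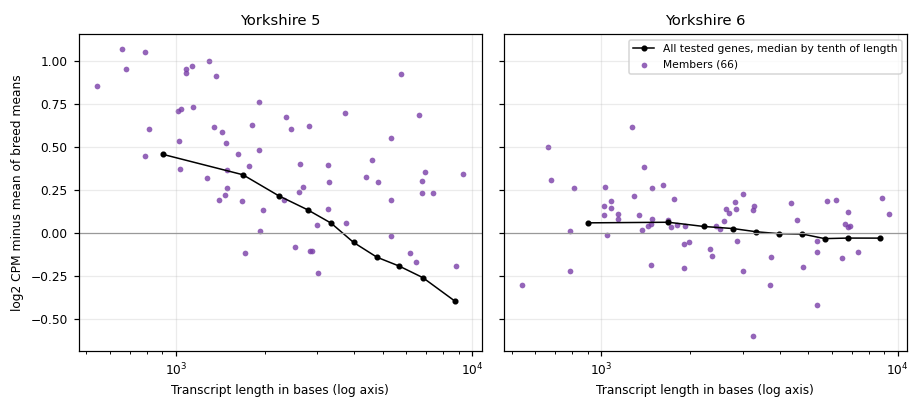
Deviation in log2 CPM from the mean of the 2 breed means against transcript length (log axis) in Yorkshire 5 and in Yorkshire 6, the library with the next highest median over the members. Purple points are the 66 members and the black line joins the medians of all tested genes in 10 length classes. In Yorkshire 5 the line runs downward from 0.46 in the shortest class to -0.40 in the longest, and most members lie above it.

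The fitted fold changes also differed by length class in their medians. Members under 1500 bases had a median log2 fold change of -0.21 (1 above 0 and 23 below), those of 1500 to 3000 bases -0.11 (4 and 15) and those of 3000 bases or more -0.04 (9 and 14). Without Yorkshire 5 these medians were -0.10 (7 above 0 and 17 below), -0.03 (6 and 13) and 0.02 (12 and 11), so that of the longest members turned sign. All tested genes under 1500 bases had a median of -0.13 (-0.06 without Yorkshire 5) and those of 3000 bases or more one of 0.04 (0.02 without Yorkshire 5). With a length trend taken off each library, an alternative chosen after seeing the data, the median over the members was -0.06, with 18 above 0 and 48 below, beside 51.2% of all tested genes below 0. The medians of the 3 length classes, from short to long, were then -0.06 (6 above 0 and 18 below), -0.04 (7 and 12) and -0.11 (5 and 18). The longest members thus had the lowest median with the trend taken off, and the highest without that step. edgeR's test then called 0 members, and 3 of 66 had an unadjusted p under 0.05, beside 442 of 11205 tested genes.

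Members with and without a bacterial counterpart had medians close to each other, and their difference was not tested. The 37 members with a counterpart had a median level of 8.34 FPKM and a median log2 fold change of -0.13 (7 above 0, 30 below), moving to -0.06 without Yorkshire 5. The 26 members of the mitochondrial lineage alone had a median level of 6.44 FPKM and a median log2 fold change of -0.12 (7 above, 19 below), moving to -0.05 without Yorkshire 5. MRPS18A, MRPS18B and MRPS36 were put in neither class.

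Proteins of the mitochondrial ribosome that carry other names were measured too. Of these 5 genes, 2 had a fold change above 0 and 3 below, with a median of -0.21 (-0.03 without Yorkshire 5). AURKAIP1, of the small subunit, was at 17.9 FPKM at the lowest, 19.6 at the median and 23.1 at the highest in Laiwu, against 16.6, 21.4 and 34.9 FPKM in Yorkshire. DAP3, a GTP-binding protein of the small subunit, was at 7.75, 11.2 and 12.6 FPKM in Laiwu, against 9.26, 10.04 and 11.3 FPKM in Yorkshire. edgeR called 0 of the 5.

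Among the genes of the machinery around the ribosome, edgeR called 0 in each list at an adjusted p under 0.05. Of 18 translation factors, 9 had a log2 fold change above 0 and 9 below, with a median of -0.01, which turned to 0.04 without Yorkshire 5 (12 above, 6 below). TUFM, the elongation factor that brings charged tRNAs to the ribosome, was at 15.1 FPKM at the lowest, 16.9 at the median and 19.6 at the highest in Laiwu, against 14.9, 17.6 and 21.9 FPKM in Yorkshire. OXA1L, the insertase that receives the new chains in the inner membrane, was at 11.4, 13.4 and 20.9 FPKM in Laiwu, against 12.2, 13.5 and 14.3 FPKM in Yorkshire. Both overlapped between the breeds. Of 21 genes for tRNA charging, 9 were above 0 and 12 below with a median of -0.03 (-0.02 without Yorkshire 5). KARS1, the lysyl-tRNA synthetase shared with the cytosol, was the highest at 130.1, 139.8 and 147.6 FPKM in Laiwu and 129.8, 136.8 and 146.9 FPKM in Yorkshire. GATC, a subunit of the amidotransferase that makes glutaminyl-tRNA, was at 20.5, 22.9 and 26.0 FPKM in Laiwu, against 19.4, 25.02 and 28.2 FPKM in Yorkshire. Of 17 genes of mitochondrial transcription and RNA processing, 11 were above 0 and 6 below with a median of 0.04 (0.06 without Yorkshire 5). FASTK was at 20.03, 23.1 and 34.9 FPKM in Laiwu, against 21.8, 26.3 and 30.0 FPKM in Yorkshire, and HSD17B10, a subunit of mitochondrial ribonuclease P, was at 21.9, 23.7 and 25.8 FPKM in Laiwu, against 20.7, 25.4 and 31.1 FPKM in Yorkshire. The breeds overlapped for all of these genes.

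Of 26 assembly factors of the mitochondrial ribosome, 7 had a log2 fold change above 0 and 19 below, with a median of -0.08, or -0.04 without Yorkshire 5. The GTPase MTG1 was at 9.55 FPKM at the lowest, 13.1 at the median and 15.1 at the highest in Laiwu, against 13.6, 15.5 and 19.9 FPKM in Yorkshire, and MALSU1 was at 7.35, 8.44 and 12.8 FPKM in Laiwu, against 7.44, 8.52 and 12.5 FPKM in Yorkshire. Both overlapped between the breeds. Chosen after its values were seen, MTG2, a GTPase of large subunit assembly, was the only gene of these lists without overlap. It was at 1.14, 1.25 and 1.498 FPKM in Laiwu, all below the 1.52, 1.60 and 1.97 FPKM in Yorkshire, a pattern seen in 0.0982% of all tested genes. Its log2 fold change was -0.35 ± 0.10 (SE) with an edgeR adjusted p of 0.912, and -0.34 without Yorkshire 5.

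Genes with symbols of cytosolic ribosomal proteins and of complex I (NDUF), 2 sets taken by symbol, also had most fold changes below 0. Most genes of each set were highest in Yorkshire 5. Their median transcript lengths were 1350 and 1560 bases, beside 3636 bases over all tested genes. Of all tested genes under 1500 bases, 72.9% were below 0 and 40.9% were highest in Yorkshire 5. Genes with cytosolic ribosomal protein symbols had 4 of 69 above 0 and 65 below, with a median of -0.20 (-0.07 without Yorkshire 5), and 63 of 69 were highest in Yorkshire 5. The 69 include RPS19BP1, which is named for binding RPS19 and is not itself a ribosomal protein. Genes with NDUF symbols, among them NDUFA4 and NDUFA4L2, which are not complex I subunits, had 5 of 33 above 0 and 28 below, with a median of -0.16, or -0.04 without Yorkshire 5, and 28 of 33 were highest in Yorkshire 5. RPLP1 was at 988.9 FPKM at the lowest, 1196 at the median and 1304.5 at the highest in Laiwu, against 1201, 1320 and 2030 FPKM in Yorkshire, and RPS2 at 418.2, 583.9 and 1096 FPKM in Laiwu, against 644.4, 805.0 and 1188.5 FPKM in Yorkshire. NDUFB10 was at 63.6, 71.8 and 81.1 FPKM in Laiwu, against 68.0, 76.1 and 112.0 FPKM in Yorkshire. edgeR called 0 genes of either set, and whether the sets differ from the members was not tested.

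Members were spread over 17 of the 20 chromosomes listed, with most on chromosomes 3 and 12 (8 each), in the coordinates of the deposited table (Sscrofa11.1). Of the 66, 24 (36.4%) started within 1000 bases of a gene on the other strand, against 16.7% of tested protein-coding genes. MRPL46 (chromosome 1, 191321999 to 191331319) and MRPS11 (chromosome 1, 191309198 to 191321648) formed such a pair with starts 351 bases apart. MRPL46 was at 10.1 FPKM at the lowest, 11.2 at the median and 12.9 at the highest in Laiwu, against 11.01, 12.7 and 14.5 FPKM in Yorkshire, and MRPS11 at 8.90, 9.55 and 12.1 FPKM in Laiwu, against 8.64, 10.4 and 18.9 FPKM in Yorkshire. Both were highest in Yorkshire 5.

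Some of the other partners also serve mitochondria. Those named here are a choice from 18 tested partners that are no members, and their share was not compared with that of other genes. MRPL43 started 307 bases from TWNK, the helicase of mitochondrial DNA, MRPL35 started 94 bases from IMMT, an organiser of the inner membrane, MRPS12 started 241 bases from SARS2, the mitochondrial seryl-tRNA synthetase, and MRPL47 started 114 bases from NDUFB5, a subunit of complex I. These pairs were chosen after their values were seen. Of the 66 members, 19 overlapped a listed gene on the other strand, among them MRPL43, MRPL49, MRPL51, MRPL39, MRPS12, MRPS14, MRPS18A, MRPS18C, MRPS22, MRPS27 and MRPS34. The labels do not say whether counting used strand, so the reads of these members and of the genes they overlap may not be told apart.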

How the data were processed

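Poly(A) RNA of frozen longissimus dorsi was sequenced, per the labels' protocols. The authors aligned reads with HISAT2 2.2.1 to Sscrofa11.1, per the series' design text. Named without a stated use in the submitters' processing notes are StringTie 1.3.4d, cutadapt 1.9, edgeR and DESeq2. The table deposited by the authors gives whole-number counts and FPKM per gene and library, per the file headers. Annotation release and strand setting: not given in the sources used here.

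Members and lists were chosen with earlier results of these data known. Genes averaging at least 0.5 FPKM were tested (11205 of 23271). edgeR 4.0.16's quasi-likelihood test (TMM, robust) on counts compared Laiwu with Yorkshire without covariates, with Benjamini-Hochberg adjustment over all tested genes and a threshold of 0.05. It was tested on simulated data. The standard error is the fold change over the root of F. A transcript length is the median over libraries of count over FPKM, scaled by the library total. Alternatives used DESeq2 1.42.0, limma 3.58.1 (R 4.3.3), other scalings and filters, a replicate block, and each library left out. Added after seeing the data was a lowess trend on length (span 0.3) as an offset. Figures used matplotlib under Python.

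The limit set by a zero count is 3 counts (0.0446 to 0.0546 CPM by library) and covers counting error only. Named members were fixed by rule: the 4 highest and 2 lowest by level in each subunit, the 4 of smallest p in each direction, the 3 most variable by the mean coefficient of variation of the breeds and a fixed panel. Fold changes are given for the 8 members of smallest p, and for MTG2, chosen after its values were seen. A gene described as L14 but listed without a symbol was not a member. The values of 1 further gene of the other lists are not reported here.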

Additional observations from a re-analysis of the deposited data

Results flagged for a closer look

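In 3 groups of 6, a library lay far from the other 5 by Dixon's criterion on the gap to the nearest value, among 66 groups examined (the named members, the sums and the median deviation, in each breed). Chance flags about 1 in 20 such groups. The median deviation of the members in log2 CPM was 0.38 in Yorkshire 5, where the next Yorkshire library was at 0.07. In Laiwu the same measure was 0.051 in Laiwu 1, where the next highest Laiwu library was at -0.05. MRPL11 was at 10.1 FPKM in Laiwu 4, where the next lowest Laiwu library was at 12.1 FPKM.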

How the results depend on the processing

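The count of members called by an adjusted p under 0.05 was 0 under every alternative run, as were the counts called in the 7 other lists. The number of members above 0 was 14 and ran from 12 to 25 with 1 library left out, the 25 being without Yorkshire 5, and their median log2 fold change ran from -0.16 to -0.05. Under other tools, scalings and filters and with a replicate block, that number ran from 14 to 19 and the median from -0.13 to -0.06. Of the 8 members whose fold change is printed, 7 kept their sign under all 23 alternatives, and MRPS31 did not, running from -0.0019 (without Laiwu 1) to 0.14 (without Yorkshire 5) with 1 library left out. The ratio of mean summed FPKM, Laiwu over Yorkshire, was 0.904 and ran from 0.879 to 0.962 with 1 library left out. It has no scaling between libraries beyond that of FPKM. With the replicate block, 16 members were above 0, 0 were called and the median was -0.11. The deviations of same-numbered libraries correlated at -0.27 to 0.33, and only library 3 correlated best with its own number, so the numbers were not taken to pair the samples. Depth limits MRPL57 most, at 23 to 285 counts in a library.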
